A study of Homo sapiens with 4 samples.

Results

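The SHC, GRB2, GAB and SOS adaptor group comprises 10 genes: SHC1, SHC2, SHC3, SHC4, GRB2, GAB1, GAB2, SOS1, SOS2 and PTPN11. They were taken by symbol, and all 10 were found among the 57773 gene IDs listed for each library. The study compared AMG510-resistant with untreated cells of MIA-PaCa2, a human pancreatic cancer line. The resistant cells had been kept for 2 months in rising doses of AMG510 (sotorasib, an inhibitor used against RAS-driven cancers), ending at 5 µM, whereas the untreated cells received none. Polyadenylated RNA was sequenced in 2 resistant and 2 untreated libraries. One label of resistant replicate 2 spells the drug AMG511; by its title and the design text it belongs to the AMG510 group, where it was placed. The labels do not say whether the drug was present at harvest or that replicates were cultured apart, so p-values reflect only how far these libraries spread. Both groups grew in the same serum-containing medium, and both groups stand for a single line.

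Receptor tyrosine kinases that bind a growth factor phosphorylate their own tails, and SHC and GRB2 dock on the phosphorylated tyrosines. GRB2 carries SOS, an exchange factor that loads RAS with GTP and so switches it on. GAB proteins are large docking platforms held by GRB2, and once phosphorylated they recruit PI3-kinase and the phosphatase SHP2, which is encoded by PTPN11 and is needed for full RAS activation.

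Expected counts per library summed to 30146559 and 33074965 in the resistant and to 38052558 and 35747414 in the untreated libraries. The line's markers were present: KRT8, KRT18 and VIM each reached at least 957 CPM (read counts scaled to library size) in every library. KRT8 and KRT18 were lower in resistant cells (log2 fold changes −1.23 and −0.88). Among markers of other cells, INS and PRSS1 were at 0 in all libraries, PTPRC, ALB, CD3E and VWF stayed below 1 CPM, and CDH5 reached at most 8.12 CPM. CD14 had 1.52 and 1.75 CPM in resistant libraries, against 6.04 and 6.09 CPM in untreated ones; its part in the results was not tested. Fewer transcripts per cell and fewer cells expressing a gene cannot be told apart in such bulk RNA.

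Among the 10 genes, GAB2 and SHC1 were higher and GRB2 and SHC3 lower in resistant cells. GAB2 stood 11.05-fold and SHC1 2.04-fold above the untreated level, while SHC3 fell to 0.376 and GRB2 to 0.632 of it. The exchange factors SOS1 and SOS2, the docking protein GAB1 and PTPN11 did not pass the test. SHC2 differed between the 2 resistant libraries themselves, and SHC4 had reads only in untreated cells. The test was edgeR's quasi-likelihood test over 16090 genes, with Benjamini-Hochberg adjustment and a threshold of 0.05. Of the 9 members with enough counts to be tested 2 were higher and 2 lower. Over all tested genes 34.0% passed, 16.6% higher and 17.4% lower, so at 4 of 9 the members' count stood near that of genes at large. Without untreated replicate 1 GRB2 did not pass, in a fit with 1 untreated library whose calls cannot be set beside those of the main fit. The members' median log2 fold change was 0.08, against −0.01 over all tested genes.

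**Figure D1:**
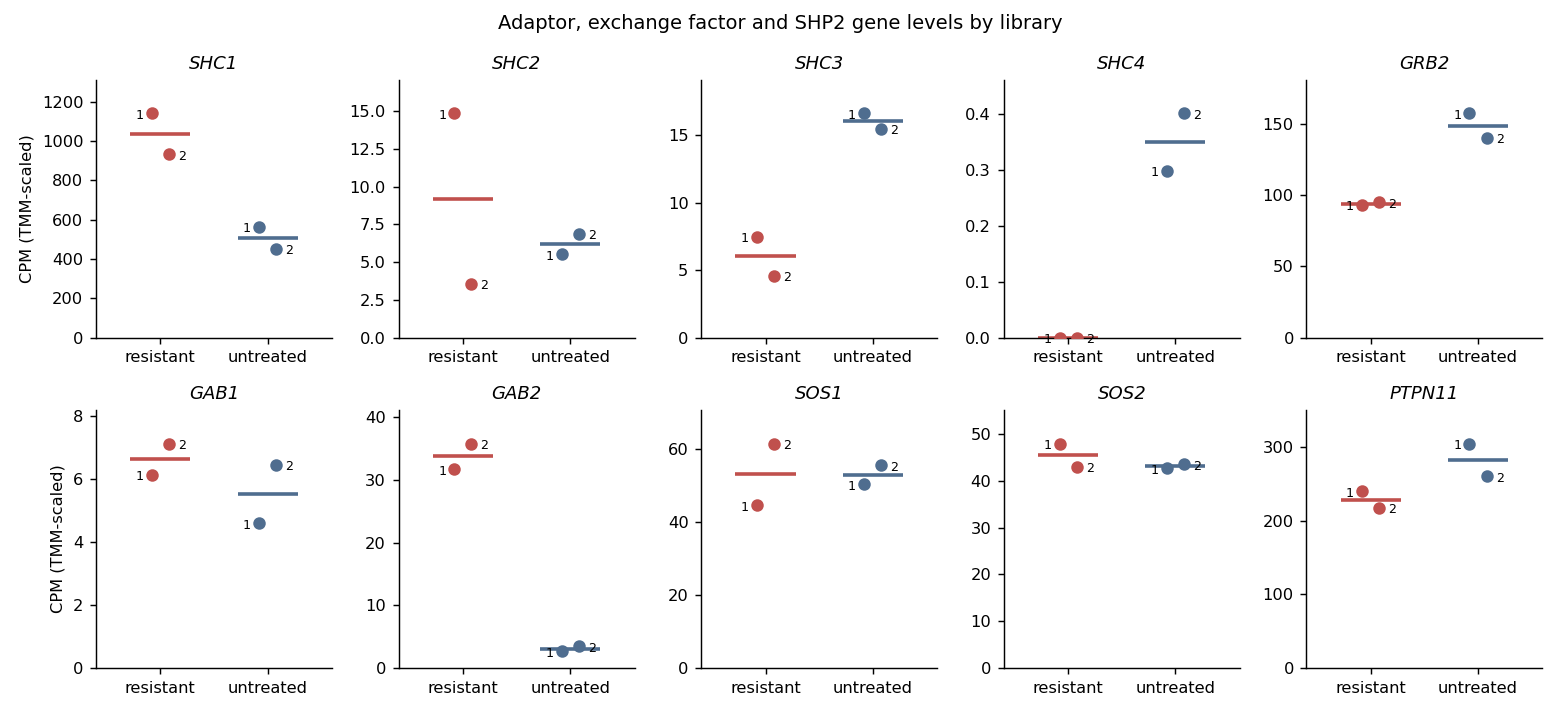
Level of each of the 10 genes in CPM, on linear axes from 0. Points are single libraries numbered by replicate, and bars are group means (n = 2); the resistant points of GAB2 and SHC1 lie above both untreated points, those of SHC3 and GRB2 lie below, and the 2 resistant points of SHC2 lie on either side of the untreated ones.

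The upstream sequence is shown for GAB2 and SHC1, the members that rose, because each has 2 annotated start sites and the gene counts do not say which one was used. The 250 bases before each start were taken from RefSeq on GRCh38.p14, a later build than the GRCh37 of the counts. They were searched on both strands for an AP-1 motif (TGANTCA), an ETS motif (CGGAAGT) and a TEAD motif (CATTCC), bound by factors of growth signalling. Capitals mark a match.
GAB2, start 1, chr11:78417821-78418070, minus strand: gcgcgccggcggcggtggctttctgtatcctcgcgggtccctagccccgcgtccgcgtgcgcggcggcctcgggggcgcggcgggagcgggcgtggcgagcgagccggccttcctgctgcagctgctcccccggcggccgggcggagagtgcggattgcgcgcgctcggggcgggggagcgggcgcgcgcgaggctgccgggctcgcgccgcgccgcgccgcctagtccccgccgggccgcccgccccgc
GAB2, start 2, chr11:78341920-78342169, minus strand: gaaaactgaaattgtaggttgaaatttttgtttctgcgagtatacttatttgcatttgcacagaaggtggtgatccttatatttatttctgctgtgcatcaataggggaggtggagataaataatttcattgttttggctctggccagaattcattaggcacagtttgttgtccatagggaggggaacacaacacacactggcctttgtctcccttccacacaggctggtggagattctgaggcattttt
SHC1, start 1, chr1:154974377-154974626, minus strand: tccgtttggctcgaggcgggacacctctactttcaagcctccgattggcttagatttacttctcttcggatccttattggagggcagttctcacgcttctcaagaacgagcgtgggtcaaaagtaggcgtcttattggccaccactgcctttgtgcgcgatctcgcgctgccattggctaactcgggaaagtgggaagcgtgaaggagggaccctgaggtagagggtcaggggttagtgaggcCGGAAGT
SHC1, start 2, chr1:154970748-154970997, minus strand: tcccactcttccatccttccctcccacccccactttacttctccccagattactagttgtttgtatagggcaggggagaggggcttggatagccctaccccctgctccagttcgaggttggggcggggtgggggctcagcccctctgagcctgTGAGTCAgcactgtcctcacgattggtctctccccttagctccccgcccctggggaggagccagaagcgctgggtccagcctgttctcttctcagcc
The GAB2 windows differed strongly in composition. The first held 51 CpG dinucleotides at 84.0% GC, whereas the second held 1 CpG at 41.2% GC. Neither GAB2 window matched any of the 3 motifs. The first SHC1 window ended in 1 ETS match, and the second held 1 AP-1 match. Of all 35116 such windows 6.57% held the AP-1 letters, 5.69% the ETS letters and 11.9% the TEAD letters. Windows were found for 8 of the 10 genes, all but GAB1 and PTPN11. Among the members not shown, only the window of SHC4, which had no counts in resistant cells, held a match, 1 for AP-1. SOS1, which did not pass, also has 2 annotated starts, and neither window matched. A match describes letters only, and no binding was measured.

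SHC1, the member of the SHC family that most cell types express, encodes adaptor proteins of several lengths that link activated receptors to GRB2. SHC1 (ENSG00000160691, chromosome 1) had 1141 and 932 CPM in resistant libraries, against 563 and 454 CPM in untreated ones. Both resistant libraries lay above both untreated libraries, and 70.9% of all tested genes were free of overlap in one direction or the other. The log2 fold change was 1.03 (SE 0.185, 95% interval 0.620 to 1.44, adjusted p = 0.00232 with edgeR). Over the 12 other settings and left-out libraries it ranged between 0.87 and 1.21 and passed in all 12. SHC1 shares 335 exon bases with PYGO2 on the same strand in GENCODE 29, so its counts are uncertain to that extent. PYGO2 had 1739 and 2093 counts in resistant and 2253 and 2080 in untreated libraries, few beside the 33060 and 31491 of SHC1 in resistant and its 20781 and 16983 in untreated libraries.

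SHC3, an SHC protein best known from neurons, fell. SHC3 (ENSG00000148082, chromosome 9) had 7.49 and 4.59 CPM in resistant libraries, against 16.6 and 15.5 CPM in untreated ones. Resistant and untreated libraries did not overlap, as for 70.9% of all tested genes. Its log2 fold change was −1.41 (SE 0.285, 95% interval −2.04 to −0.783, adjusted p = 0.00411 with edgeR). It passed under all 12 alternatives, with values between −1.79 and −1.10.

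SHC4 (ENSG00000185634, chromosome 15), a further SHC adaptor, had 0 counts in both resistant libraries, against 11 and 15 counts in the untreated ones. Set against 3 counts over the resistant group (0.0478 CPM), which a count of 0 allows, this was at least 7.31-fold lower, a floor that covers counting error only. SHC4 was too low for the test with the usual filter. With every counted gene kept, edgeR gave it an adjusted p = 8.68e-04. For GAB2 the same edgeR fit gave an adjusted p = 1.78e-38, against 6.90e-06 in the main fit. Adjusted p-values of these fits therefore cannot be set side by side. SHC4 shares 169 exon bases with EID1 on the opposite strand, and the strand setting of the counting is not given in the sources used here. EID1 had 2270 and 3047 counts in resistant and 6293 and 5297 in untreated libraries.

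SHC2 (ENSG00000129946, chromosome 19), an SHC protein also studied mainly in nerve cells, had 14.8 and 3.55 CPM in resistant replicates 1 and 2, against 5.52 and 6.87 CPM in untreated libraries. Resistant replicate 1 stood above both untreated libraries and resistant replicate 2 below both. The log2 fold change of 0.57 (SE 0.634, 95% interval −0.994 to 2.12) did not pass (adjusted p = 0.542 with edgeR). Without resistant replicate 2 it was 1.26, and without resistant replicate 1 it was −0.78. Each of these fits holds 1 resistant library, so their adjusted p-values cannot be set beside those of the main fit.

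Levels of different genes were compared per kilobase of transcript, using the median length of each gene's coding transcripts in GENCODE 29. On that scale SHC1 made up 98.7% and 99.5% of the summed SHC1 to SHC4 level in resistant libraries, against 98.0% and 97.3% in untreated ones. The share of SHC3 was 0.262% and 0.198% in resistant libraries, against 1.17% and 1.34% in untreated ones. SHC1 therefore remained the predominant SHC transcript in all 4 libraries.

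GRB2 joins phosphorylated receptors and SHC proteins to SOS and to GAB proteins. GRB2 (ENSG00000177885, chromosome 17) had 93.3 and 94.8 CPM in resistant libraries, against 157 and 140 CPM in untreated ones. The resistant libraries agreed closely with each other and lay below both untreated libraries. Such freedom from overlap, in either direction, was found in 70.9% of all tested genes. Its log2 fold change was −0.66 (SE 0.156, 95% interval −1.01 to −0.317, adjusted p = 0.00882 with edgeR). Without untreated replicate 1 it was −0.55 and did not pass (adjusted p = 0.0724).

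GAB2, a docking protein that recruits SHP2 and PI3-kinase and is amplified in some breast cancers and melanomas, had the largest fold change of the 9 tested members. GAB2 (ENSG00000033327, chromosome 11) had 31.7 and 35.8 CPM in resistant libraries, against 2.65 and 3.45 CPM in untreated ones. As counts these were 919 and 1209 in resistant libraries, against 98 and 129 in untreated ones. Each resistant library stood over 10-fold above the untreated mean, at 10.4-fold and 11.7-fold. The log2 fold change was 3.47 (SE 0.240, 95% interval 2.94 to 3.995, adjusted p = 6.90e-06 with edgeR), the 237th highest of the 16090 genes tested. All 12 alternatives kept it past the threshold, between 3.31 and 3.66.

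GAB1, its paralog and the docking partner of the MET receptor, had 6.14 and 7.14 CPM in resistant libraries, against 4.603 and 6.465 CPM in untreated ones. These ranges overlapped. GAB1 (ENSG00000109458, chromosome 4) did not pass, at a log2 fold change of 0.26 (SE 0.310, 95% interval −0.421 to 0.947, adjusted p = 0.549 with edgeR). The balance of the paralogs can be read as a ratio of counts within a library, which needs no scaling between libraries. The GAB2 to GAB1 count ratio was 5.16 and 5.02 in resistant libraries, against 0.577 and 0.533 in untreated ones. Per kilobase, GAB2 made up 53.3% ± 0.506 of the summed GAB1 and GAB2 level in resistant cells and 11.1% ± 0.545 in untreated cells (SD, n = 2 each). These shares depend on transcript length, which for GAB1 was 743 bases as the median and 7981 bases as the longest transcript. With the longest transcript of each gene the share of GAB2 was 87.0% in resistant and 42.1% in untreated cells. The larger share in resistant cells held on both scales, as did GAB2 standing above GAB1 in resistant cells and below it in untreated cells, while the size of the gap depended on the length used.

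**Figure D2:**
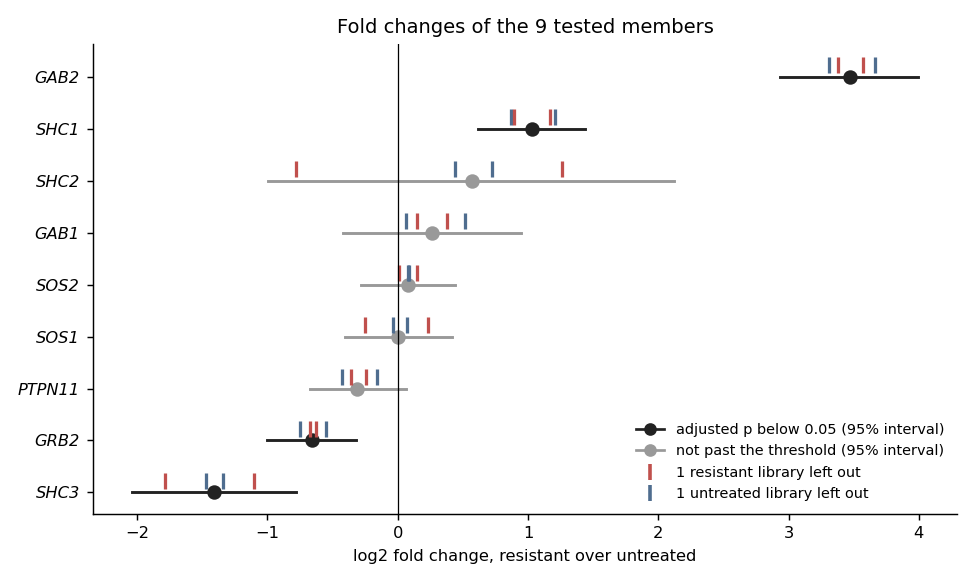
Log2 fold change of resistant over untreated cells for the 9 tested genes, as points with 95% intervals from edgeR's quasi-likelihood test, black where the adjusted p was below 0.05. Short ticks give the value with 1 library left out; those of GAB2 stay between 3.31 and 3.66, and those of SHC2 run between −0.78 and 1.26.

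SOS1 and SOS2 are the exchange factors that GRB2 brings to RAS at the membrane. SOS1 (ENSG00000115904, chromosome 2) had 44.7 and 61.6 CPM in resistant libraries, against 50.4 and 55.7 CPM in untreated ones. The resistant libraries enclosed the untreated ones. Its log2 fold change was 0.0029 (SE 0.186, 95% interval −0.407 to 0.413, adjusted p = 0.992 with edgeR), and its sign differed between settings. SOS2 (ENSG00000100485, chromosome 14) had 48.0 and 43.0 CPM in resistant libraries, against 42.7 and 43.5 CPM in untreated ones. Its libraries overlapped as well, and the log2 fold change was 0.08 (SE 0.163, 95% interval −0.281 to 0.437, adjusted p = 0.743 with edgeR). The intervals reach up to 0.413 in log2 for SOS1 and 0.437 for SOS2, and down to −0.407 and −0.281. Changes within them could not have been told from none in these libraries. Per kilobase SOS1 held 42.5% ± 7.39 of the summed SOS level in resistant cells and 43.9% ± 1.38 in untreated cells (SD, n = 2 each).

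PTPN11, which encodes SHP2, had 240 and 217 CPM in resistant libraries, against 304 and 260 CPM in untreated ones. Both resistant libraries lay below both untreated ones, as 70.9% of all tested genes were free of overlap in one direction or the other. PTPN11 (ENSG00000179295, chromosome 12) did not pass, at a log2 fold change of −0.31 (SE 0.166, 95% interval −0.673 to 0.0616, adjusted p = 0.181 with edgeR). Under the 12 alternatives its value stayed below 0, between −0.43 and −0.16, and never passed. It shares 111 exon bases with RPL6, an abundant ribosomal protein gene on the opposite strand that had between 34769 and 47966 counts per library, so its level is uncertain if strand was not used.

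The proportions between the members shifted. The SHC1 to GRB2 count ratio was 12.2 and 9.83 in resistant libraries, against 3.58 and 3.23 in untreated ones. GAB2 to GRB2 stood at 0.340 and 0.377 in resistant libraries, against 0.0169 and 0.0246 in untreated ones. SHC1 to SHC3 was 152 and 203 in resistant libraries, against 33.9 and 29.3 in untreated ones. All 3 ratios were higher in each resistant library than in either untreated one. Each sets a member that rose over a member that fell, so this follows from the levels given above. The pairs were chosen after the values were seen. SOS1 to SOS2, at 0.932 and 1.43 in resistant and 1.18 and 1.28 in untreated libraries, overlapped between the groups. SOS1 to GRB2 was 0.479 and 0.650 in resistant libraries, against 0.321 and 0.397 in untreated ones, and PTPN11 to GRB2 was 2.57 and 2.29 in resistant libraries, against 1.94 and 1.85 in untreated ones. With 2 libraries a group an exact two-sided permutation test cannot go below p = 0.333, so no test was run on these ratios.

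**Figure D3:**
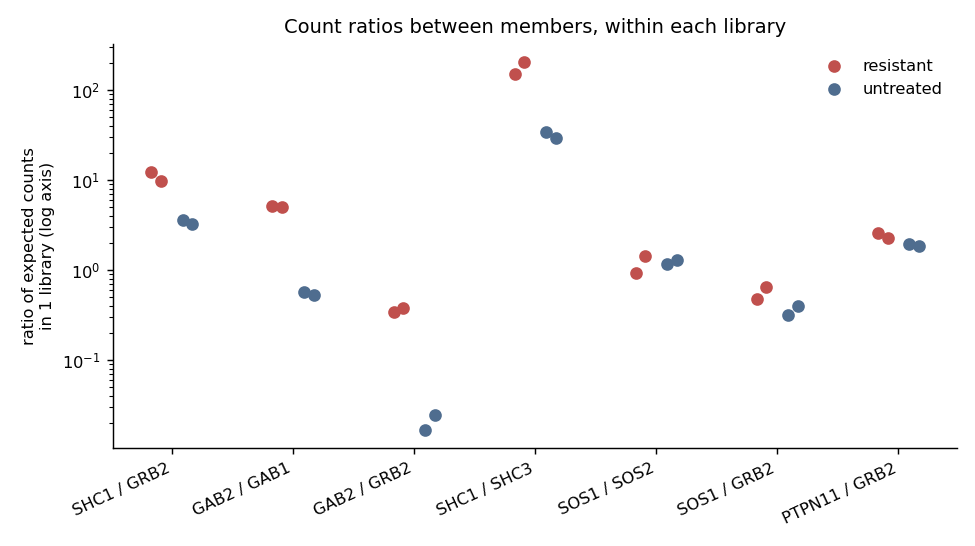
Ratio of expected counts of pairs of members within each library, on a log axis, with resistant points left of untreated points (2 libraries each). The resistant and untreated points of SHC1 / GRB2, GAB2 / GAB1, GAB2 / GRB2 and SHC1 / SHC3 are well apart. Those of SOS1 / GRB2 and PTPN11 / GRB2 lie closer together but do not overlap, while those of SOS1 / SOS2 overlap.

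Per kilobase, the order of the members began with SHC1 in both groups, at 495 ± 70.4 CPM per kb in resistant and 243 ± 36.9 CPM per kb in untreated cells (SD, n = 2 each). PTPN11 came next, at 176 ± 12.3 CPM per kb in resistant and 218 ± 24.3 CPM per kb in untreated cells. In untreated cells the libraries of SHC1 and PTPN11 overlapped on this scale. GRB2 was the third in both groups, at 31.2 ± 0.354 CPM per kb in resistant and 49.3 ± 3.99 CPM per kb in untreated cells, and SOS2 the fourth, at 11.5 ± 0.876 CPM per kb in resistant and 10.9 ± 0.150 CPM per kb in untreated cells. The first 4 places were the same with the longest transcript as the length. SHC1 and PTPN11 then did not overlap in untreated cells. SHC1 had 162 and 130 CPM per kb in untreated libraries by that length, PTPN11 49.9 and 42.6, and GRB2 42.2 and 37.6. By the median length GAB2 ranked 5 of 10 in resistant cells, at 10.2 ± 0.874 CPM per kb. In untreated cells it ranked 9 of 10, at 0.922 ± 0.169 CPM per kb. In resistant cells its libraries, at 9.58 and 10.8 CPM per kb, lay below those of SOS2, at 12.1 and 10.9 CPM per kb, and overlapped those of GAB1 (8.93 ± 0.946 CPM per kb) and SOS1 (8.55 ± 1.93 CPM per kb) below it. SOS1 and GAB1 followed SOS2 in untreated cells, with overlapping libraries. SHC2 and SHC3 overlapped in resistant cells, whereas in untreated cells SHC3 (3.11 ± 0.159 CPM per kb) stood above SHC2 (2.48 ± 0.380 CPM per kb). With the longest transcript the order of that pair turned in untreated cells, with SHC3 at 1.64 ± 0.0839 CPM per kb and SHC2 still at 2.48 CPM per kb. By that length GAB2 ranked 6 in resistant and 9 in untreated cells, and GAB1 ranked 8 in both. SHC4 was lowest in both groups.

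The members were also set beside their neighbouring genes on the chromosome. The order was taken from GENCODE 29, using 5 tested protein-coding genes on each side. The 10 neighbours of GAB2 had log2 fold changes between −1.92 and 1.16 and a median of −0.12, and the median of the 738 tested coding genes of chromosome 11 was 0.42. Of these neighbours 4 rose (KCTD21, USP35, PRCP and RAB30) and 1 fell (NDUFC2). Over all tested genes, the background for the neighbours of each member, 16.6% rose and 17.4% fell. The value of GAB2, 3.47, lay above all 10. Around SHC1, PBXIP1 alone of 10 neighbours rose (1.19, adjusted p = 8.94e-04 with edgeR), and PYGO2, with which SHC1 shares bases, did not pass (0.07, adjusted p = 0.774). The median around SHC1 was 0.00 and that of chromosome 1 was −0.08. Around SHC3, which fell, the 10 neighbours had a median of 0.41, with NXNL2, CKS2 and GADD45G higher.

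**Figure D4:**
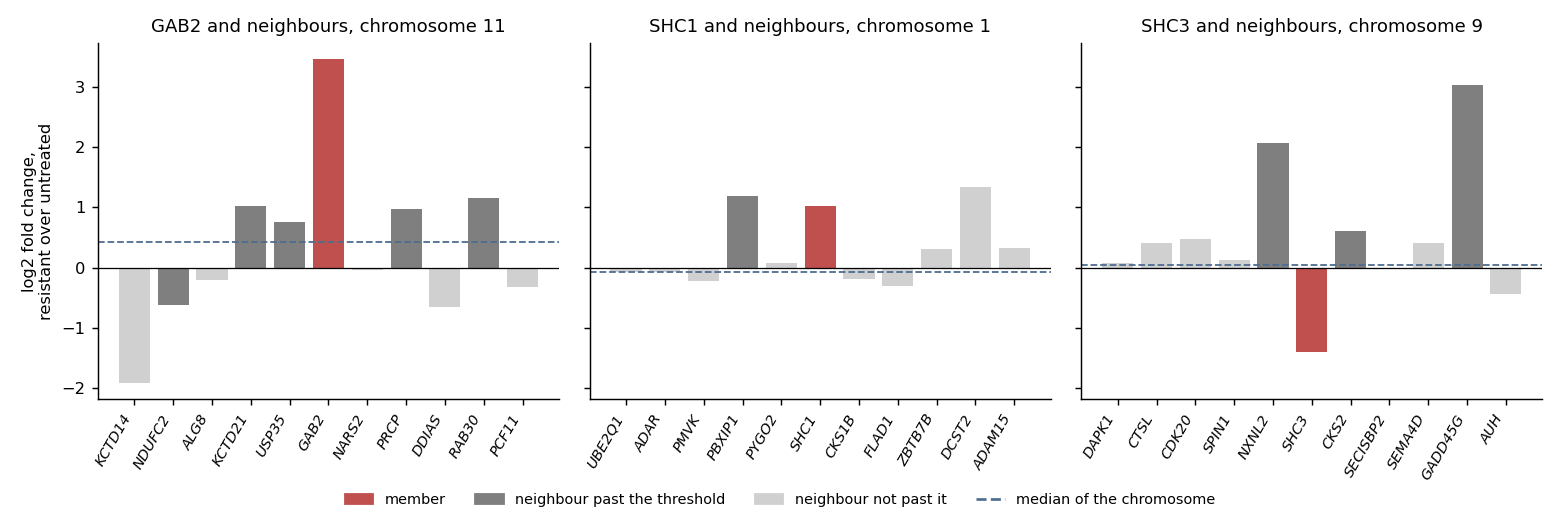
Log2 fold change of resistant over untreated cells for GAB2, SHC1 and SHC3 (red) and 5 tested protein-coding genes on each side in gene order, dark grey where the neighbour passed. The dashed line is the median of the chromosome's tested coding genes (0.42 on chromosome 11), and GAB2 at 3.47 stands above its 10 neighbours.

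Other adaptors and docking proteins of receptor signalling, a list that includes inhibitory members, moved in both directions. Of 20 tested genes out of 34 listed, 6 rose, 3 fell and 11 did not pass, with a median log2 fold change of 0.17. Over all tested genes, the background for this list and those below, 16.6% rose and 17.4% fell, with a median of −0.01. GRB10, an adaptor of insulin and IGF1 receptors, rose most, at 48.1 and 60.1 CPM in resistant libraries, against 8.77 and 7.64 CPM in untreated ones (log2 fold change 2.72, SE 0.204, adjusted p = 1.22e-05 with edgeR). IRS2, a docking protein of the same receptors, had 69.8 and 43.6 CPM in resistant libraries, against 21.5 and 21.3 CPM in untreated ones (1.41, adjusted p = 0.00144). DOK4, of the DOK docking family, rose by 1.18 (adjusted p = 0.00232). DOK3, a family member known as an inhibitory adaptor of immune cells, had 1.52 and 0.799 CPM in resistant libraries, against 5.85 and 3.66 CPM in untreated ones, a fall (−2.04, adjusted p = 0.00660) that did not pass without untreated replicate 1 (adjusted p = 0.0536). The other risers, named after their values were seen, were CRKL, NCK1 and NCK2, at 0.58 to 0.61, and the other fallers were GRB7 (−1.01) and SHB (−0.77). Each of these 5 missed the threshold with some library left out: CRKL lost the call without untreated replicate 1 or 2 (adjusted p up to 0.0697), NCK1 and GRB7 without untreated replicate 2 (adjusted p = 0.105 and 0.0588), NCK2 without any library but resistant replicate 2 (adjusted p up to 0.218) and SHB without untreated replicate 1 (adjusted p = 0.301) and without resistant replicate 2 (adjusted p = 0.103). IRS1, a docking protein, had 137 and 160 CPM in resistant libraries, against 144 and 141 CPM in untreated ones. Its resistant mean was the highest in CPM among the listed genes not called. Without untreated replicate 1 or without untreated replicate 2 the list had 5 calls in place of 9.

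Of the other RAS exchange factors, 4 of 6 were tested and 1 rose. RASGRP3, which is activated by diacylglycerol, had 5.00 and 6.31 CPM in resistant libraries, against 0.650 and 0.374 CPM in untreated ones (log2 fold change 3.46, SE 0.444, adjusted p = 3.85e-04 with edgeR). RASGRP2, a related exchange factor, had 5.66 and 3.32 CPM in resistant libraries, against 1.84 and 3.74 CPM in untreated ones, and did not pass. RASGRF1, best known from neurons and named after its values were seen, had 0.242 and 0.178 CPM in resistant libraries, against 2.79 and 0.321 CPM in untreated ones. It did not pass (−2.88, adjusted p = 0.0549), but did without untreated replicate 2 (−3.73, adjusted p = 7.42e-04) and without resistant replicate 1 (−3.10, adjusted p = 0.00283), and its value was −0.59 without untreated replicate 1 (adjusted p = 0.757). RASGRF1 also passed with every counted gene kept (adjusted p = 9.67e-05 with edgeR) and with DESeq2 (adjusted p = 0.0197). As for SHC4, the value with every counted gene kept cannot be set beside those of the main fit.

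Membrane proteins that bind SHP2 gave 1 riser and 1 faller among 3 tested. SIRPA, an inhibitory receptor that recruits SHP2, had 8.18 and 11.3 CPM in resistant libraries, against 18.3 and 21.6 CPM in untreated ones (log2 fold change −1.04, adjusted p = 0.00838 with edgeR). MPZL1, a glycoprotein that binds SHP2, had 189 and 183 CPM in resistant libraries, against 147 and 124 CPM in untreated ones (0.46, adjusted p = 0.0498). The MPZL1 call ended with RLE scaling (adjusted p = 0.0549) and without any 1 of the 4 libraries (adjusted p between 0.0658 and 0.259). IL6ST, the shared receptor chain of the interleukin 6 family, had 65.8 and 114 CPM in resistant libraries, against 74.5 and 74.3 CPM in untreated ones, and did not pass (0.27, adjusted p = 0.408). Without resistant replicate 1 it was 0.63, and without resistant replicate 2 it was −0.18.

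Among phosphatases, ubiquitin ligases and other restraints on adaptor signalling, 5 of 12 tested genes rose, 1 fell and 6 did not pass, with a median of 0.42. Over all tested genes 16.6% rose and 17.4% fell, with a median of −0.01. PTPRJ, a receptor-type tyrosine phosphatase, had 102 and 108 CPM in resistant libraries, against 16.2 and 25.5 CPM in untreated ones (log2 fold change 2.33, SE 0.217, adjusted p = 7.05e-05 with edgeR). SH3KBP1, which works with CBL in receptor uptake, rose to 89.0 and 120 CPM in resistant libraries, against 31.2 and 37.1 CPM in untreated ones (1.61, adjusted p = 2.23e-04). INPPL1, the lipid phosphatase SHIP2 that binds SHC, rose by 0.67 (adjusted p = 0.00901), and missed the threshold once untreated replicate 1 was left out (adjusted p = 0.0588). PTPN1, a phosphatase of insulin and EGF receptors, fell to 34.9 and 24.4 CPM in resistant libraries, against 74.8 and 60.2 CPM in untreated ones (−1.19, adjusted p = 0.00205). CBL (0.68), a ubiquitin ligase of receptors, and PTPN2 (0.60) were the other risers, named after their values were seen. Both lost the call with a library left out, CBL without untreated replicate 1 (adjusted p = 0.103) and PTPN2 without untreated replicate 2 (adjusted p = 0.191) and without resistant replicate 1 (adjusted p = 0.154). ERRFI1, an inhibitor of EGFR, did not pass (0.24, adjusted p = 0.305).

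The receptors that these adaptors serve had 7 risers, 1 faller and 14 that did not pass among 22 tested, with a median of 0.35. Over all tested genes 34.0% passed, 16.6% higher and 17.4% lower, with a median of −0.01. PDGFRB, a receptor for platelet-derived growth factor, had 5.07 and 2.16 CPM in resistant libraries, against 0.0542 and 0.187 CPM in untreated ones (log2 fold change 4.86, SE 0.695, adjusted p = 7.69e-04 with edgeR). As counts these were 147 and 73 in resistant libraries, against 2 and 7 in untreated ones. The level in untreated replicate 1 was below that of 3 counts, so the size of the PDGFRB fold change is poorly determined. Its value was 4.26 without untreated replicate 1, 5.95 without untreated replicate 2 and 4.14 without resistant replicate 1. EGFR, which recruits both SHC1 and GRB2, had 513 and 526 CPM in resistant libraries, against 205 and 249.7 CPM in untreated ones. AXL rose by 1.10 and DDR1 by 1.01, and the faller, named after its value was seen, was DDR2 (−0.87), like DDR1 a collagen receptor. Named after their values were seen, the risers LTK (2.51) and MET (0.85) missed the threshold without untreated replicate 1, at 1.90 and 0.65. LTK had few counts, 67 and 42 in resistant libraries, against 5 and 18 in untreated ones. ERBB2 had 177 and 154 CPM in resistant libraries, against 166 and 172 CPM in untreated ones. Its resistant mean was the highest in CPM among the receptors not called.

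The genes whose values across the 4 libraries lay closest to those of SHC1 and GRB2 were found by the root mean square difference in log2 CPM, each gene centred on its own mean. Closest to SHC1 were TOB2, at 0.0260, VSIR, at 0.0364, and SIAH2, at 0.0388. Closest to GRB2 were BUB3, at 0.0119, SRD5A3, at 0.0144, and WDR89, at 0.0156. Within 0.1 of the member lay 63 tested genes for SHC1 and 683 for GRB2, so 4 libraries separate such patterns poorly.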

How the data were processed

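The authors deposited expected counts per gene for each library, per the file headers. The submitters' processing notes name RSEM 1.3.1, STAR 2.7.2b and the build GRCh37, without their roles. The annotation release and strand setting are not given in the sources used here. Expected counts were rounded before testing. Symbols came from a gene name table that named 51996 of 57773 IDs, and GENCODE 29, of another build, gave lengths, gene order and overlaps.

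Genes were kept with edgeR's filterByExpr, scaled with TMM and compared with edgeR 4.0.16's quasi-likelihood test with robust dispersions (R 4.3.3), resistant over untreated. P-values were adjusted by Benjamini-Hochberg over 16090 genes. Standard errors are the fold change's size over the square root of F. The fit was run on simulated counts with few changed genes and the same dispersion for every gene. That setting differs from these data, so the run checks the code only. CPM values of a group are means ± SD of 2 libraries, and 3 counts corresponded to between 0.0801 and 0.104 CPM. Alternatives were upper-quartile and RLE scaling, every counted gene kept, a minimum of 1 CPM in 2 libraries, a replicate block, each library left out, a threshold of 0.01, DESeq2 1.42.0, limma-voom 3.58.1, edgeR's newer quasi-likelihood form and the longest transcript as length. The members, lists and rules were chosen with earlier results of these data known. Named genes were all members and up to 4 called genes per list with the smallest adjusted p. Also named were each list's gene not called with the highest mean CPM in resistant libraries, and 3 genes closest to SHC1 and to GRB2. The neighbours and count ratios were added after the values were seen. Some genes and neighbours are not reported here.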

Additional observations from a re-analysis of the deposited data

How the results depend on the processing

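A fit with 1 library left out has 1 library in that group, so its calls cannot be set beside those of the main comparison. The number of members called was 4 in the main comparison. It was 4 with the replicate number as a block (5275 genes called in all), where same-numbered libraries did not deviate together (r = −0.0604 across genes), and the block ended no member's call; outside the members RASGRF1 passed with it (adjusted p = 0.0480). Over all genes 5463 were called, between 2832 and 5041 with 1 library left out (2832 without untreated replicate 1) and 2832 at a threshold of 0.01. Of the 108 alternatives for the members' fold changes 101 kept direction and side of the threshold. SHC2 lay between −0.78 (without resistant replicate 1) and 1.26 (without resistant replicate 2) with 1 library left out. SOS1, at 0.0029, was −0.01 with the replicate block, −0.0097 with limma-voom, −0.04 without untreated replicate 1, and between −0.25 (without resistant replicate 2) and 0.23 (without resistant replicate 1) over the left-out libraries. With 1 library left out IRS1 lay between −0.06 and 0.18, IL6ST between −0.18 and 0.63 and ERBB2 between −0.11 and 0.07, the sign turning in each without resistant replicate 2; ERBB2 was 0.0029 with the stricter filter. The causes were not tested. With the longest transcript as length, the GAB2 share was 87.0% in resistant and 42.1% in untreated cells, and the SHC1 share in untreated cells was 97.2%. With 2 libraries a group, small changes such as those of SOS1, SOS2 and PTPN11 could not be told from none.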
